A study of Homo sapiens with 4 samples.

Results

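The nuclear genes that encode subunits of the mitochondrial respiratory chain were followed in 2 established human hepatocellular carcinoma (HCC) lines, Huh7 and Hep3B, on the U133 Plus 2.0 array of Affymetrix. Genes were taken by their symbols, which are those beginning NDUFA, NDUFB, NDUFC, NDUFS or NDUFV for complex I, SDHA to SDHD for complex II, UQCR and CYC1 for complex III, COX4I to COX8 for complex IV and ATP5 for complex V. Assembly factors of the NDUFAF series and pseudogenes were left out. The probe annotation listed 85 such protein-coding symbols. Of these, 78 were measured, among 19775 genes in all, each read from the brightest probe set that names that gene alone. There were 33 genes of complex I, 3 of complex II, 7 of complex III, 17 of complex IV and 18 of complex V. The other 7, among them NDUFS8, NDUFC2 and UQCRH, were listed only on probe sets that name several genes. SDHB and UQCRFS1 were not analysed here, nor were the 13 subunits encoded in mitochondrial DNA.

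ATO-treated cells of each line received arsenic trioxide (ATO) at 3 μM over 7 days, and DMSO went to the negative control cells. Each of the 4 conditions had 1 profile. The study compared the arrays of a line to ask which genes ATO changes in HCC cells. A ratio of ATO over negative control therefore has no error within a line, and means over the lines are given with the SD of their 2 log2 ratios. The intensity of an array is on a linear scale and is not comparable between probe sets of different genes. The arrays read the RNA of whole cultures, so fewer cells with a transcript and less of that transcript per cell cannot be told apart.

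The respiratory chain sits in the inner mitochondrial membrane. Complex I takes electrons from NADH and complex II from succinate, and both hand them to ubiquinone. Complex III passes them on to cytochrome c, complex IV passes them to oxygen, and complexes I, III and IV pump protons as they do so. Complex V, the ATP synthase, lets the protons flow back and makes ATP. Most subunits are encoded in the nucleus, and the complexes other than complex II also hold subunits encoded in mitochondrial DNA. Liver cells are rich in mitochondria and rely on this chain for ATP, for oxidizing fatty acids and for parts of urea synthesis.

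All 9 liver markers examined were above the median probe set on every array, but AFP, ALB and TTR differed widely between the lines. AFP, the fetal counterpart of albumin, had intensities of 62.1 with ATO and 91.8 in the negative control on the arrays labelled Huh7, against 1646 and 3566 on those labelled Hep3B. ALB, serum albumin, had 358 and 155 against 10730 and 12803. Huh7 is known as a line that makes albumin and AFP, so these levels go against that label, and comparisons of the lines hold for the arrays as labelled. Of the fibroblast markers 1 of 4 was above the median probe set, COL1A1, with at most 1 of 3 leukocyte and 1 of 3 endothelial markers on any array. The poly-A transcripts spiked in ahead of the labeling step were lower on ATO than on negative control arrays, with a median log2 difference of -0.28 in Huh7 and -0.23 in Hep3B. The hybridization controls differed by 0.07 and 0.10. Whether the step these controls follow touched the ratios below was not tested.

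Promoters of 66 of the 78 genes were in the RefSeq table (GRCh38.p14), as windows from 250 bases before to 50 bases after a transcription start. Nuclear respiratory chain genes are known for sites of NRF1 and of ETS factors such as GABPA, and many carry a site of YY1. Each window was searched on both strands for GCGC followed by A, any base and GCGC again (NRF1), CCGGAAG (ETS) and AAGATGG (YY1). The NRF1 letters were in 24.2% of these genes and in 9.67% of 15843 protein-coding genes, the ETS letters in 28.8% and 16.5%, and the YY1 letters in 25.8% and 7.9%. At least 1 of the motifs was in 41 of the 66 genes, or 62.1%, against 29.3% of all genes. Of these genes, 9 had more than 1 listed start and so more than 1 window. The GC box GGGCGG, in 63.6% and 64.3%, and CCAAT, in 36.4% and 42.1%, were about as frequent as elsewhere. A match is a run of letters and not a bound site. Among the genes with a promoter entry, 24 were lower with ATO in both lines and 15 were higher in both. The NRF1 letters were in 6 of the 24 and 2 of the 15, the ETS letters in 8 and 4, and the YY1 letters in 5 and 1, with no test made.

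The 250 bases before the start are shown for NDUFA5 and SDHD, which had the lowest ratios with ATO in Hep3B and on the mean of both lines, and for COX7B and COX7B2, which differed most between the lines. Capitals mark the NRF1, ETS or YY1 letters on either strand. NDUFA5 lies on the minus strand at chr7:123557819-123558068 (the one of its 3 listed starts with any of these letters) and SDHD on the plus strand at chr11:112086623-112086872. COX7B lies on the plus strand at chrX:77899218-77899467 and COX7B2 on the minus strand at chr4:46909246-46909495.
NDUFA5: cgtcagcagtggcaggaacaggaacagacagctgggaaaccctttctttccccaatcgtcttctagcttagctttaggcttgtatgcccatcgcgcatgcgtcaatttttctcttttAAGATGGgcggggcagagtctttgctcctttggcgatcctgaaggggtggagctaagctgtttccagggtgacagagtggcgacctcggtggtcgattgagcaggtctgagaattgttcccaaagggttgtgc
SDHD: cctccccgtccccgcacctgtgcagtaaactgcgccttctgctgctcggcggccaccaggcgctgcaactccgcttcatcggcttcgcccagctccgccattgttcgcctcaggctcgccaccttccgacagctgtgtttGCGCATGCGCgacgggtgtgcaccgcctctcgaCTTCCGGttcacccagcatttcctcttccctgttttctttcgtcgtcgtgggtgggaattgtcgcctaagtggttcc
COX7B: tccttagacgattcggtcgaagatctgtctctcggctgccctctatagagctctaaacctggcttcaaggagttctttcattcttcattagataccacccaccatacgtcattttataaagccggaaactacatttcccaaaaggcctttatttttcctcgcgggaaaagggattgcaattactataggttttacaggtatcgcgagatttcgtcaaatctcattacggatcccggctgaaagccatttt
COX7B2: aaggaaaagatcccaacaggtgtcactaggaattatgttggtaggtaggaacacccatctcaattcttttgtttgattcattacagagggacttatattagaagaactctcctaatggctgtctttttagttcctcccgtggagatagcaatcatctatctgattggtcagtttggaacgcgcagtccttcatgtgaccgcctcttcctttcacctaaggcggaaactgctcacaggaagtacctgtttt
The SDHD promoter held both an NRF1 and an ETS motif, from 110 to 101 and from 77 to 71 bases before the start. The NDUFA5 promoter held a YY1 motif from 133 to 127 bases before the start. The printed stretches of COX7B and COX7B2 held none of the 3 motifs.

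No respiratory chain gene passed the study's thresholds, above 1.5 or below 0.67, in both lines. The shares over all genes were 0.804% past the upper and 0.587% past the lower threshold in both lines. NDUFA5 and SDHD were the only genes of the 78 past a threshold in either line, both below 0.67 in Hep3B, where 4.02% of all genes lay, while their Huh7 ratios were above it. Of all genes, 3.21% were above 1.5 and 3.25% below 0.67 in Huh7, and 5.04% were above 1.5 in Hep3B. The ratios of the 78 genes ran from 0.693 to 1.49 in Huh7 and from 0.554 to 1.43 in Hep3B. Over all genes they ran from 0.0944 to 11.9 and from 0.108 to 67.6. The SD of the log2 ratios was 0.17 in Huh7 and 0.23 in Hep3B for these genes, 0.33 and 0.38 for all genes, and 0.30 and 0.42 for the 2531 genes with a mean intensity of 500 or more, a level that 69 of the 78 reached. At a smaller fold, 3 genes (NDUFA5, NDUFB1 and SDHD) were below 1/1.2 in both lines, or 3.85% against 4.39% of all genes. None was above 1.2 in both, against 5.4%.

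**Figure D1:**
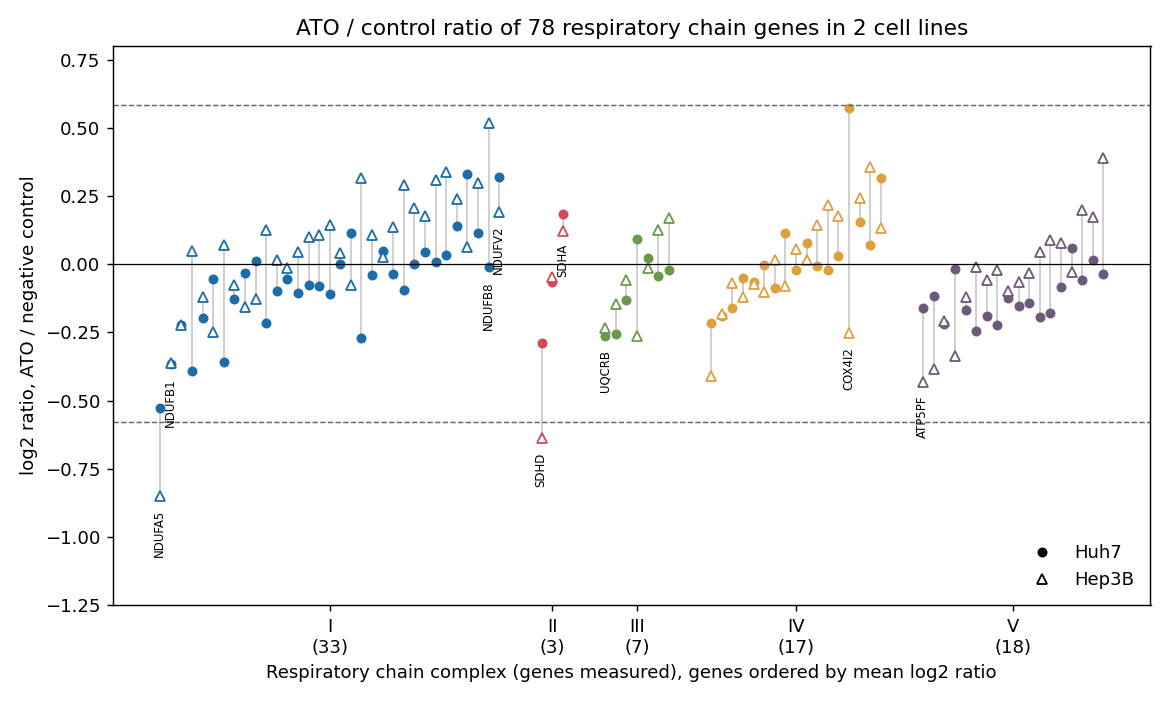
Log2 ratio of ATO over negative control (y axis) for the 78 respiratory chain genes, ordered by mean log2 ratio within complexes I to V (x axis), with a filled circle for Huh7 and an open triangle for Hep3B, 1 pair of profiles each. Dashed lines mark ratios of 1.5 and 0.67, and the only points past them are NDUFA5 and SDHD in Hep3B.

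Small ratios leaned down more often than up. In both lines, 30 of the 78 genes (38.5%) were lower with ATO, against 24.7% of all genes and 30.0% of those with a mean intensity of 500 or more. In both lines 16 (20.5%) were higher, against 32.0% and 30.4%. In Huh7, 55 of the 78 (70.5%) were lower, against 48.8% of all genes and 52.2% of those with a mean intensity of 500 or more. The median log2 ratio was -0.06, against 0.01 and -0.01. In Hep3B, 37 (47.4%) were lower and 41 (52.6%) higher. All genes had 43.7% and 56.0%, while those with a mean intensity of 500 or more had nearly the same shares as the 78, 47.5% and 52.5%. The Hep3B median log2 ratio was 0.01, against 0.04 for all genes and 0.02 for those bright genes. When arrays were centred on their medians the count lower in both lines was 34 and higher 10, and with quantile normalization 25 and 20. The Hep3B split was 40 lower and 38 higher when centred, so its direction depended on the scaling. A further 25 genes (32.1%) were lower in Huh7 and higher in Hep3B, against 23.9% of all genes, and 7 (8.97%) were the reverse, against 18.9%.

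**Figure D2:**
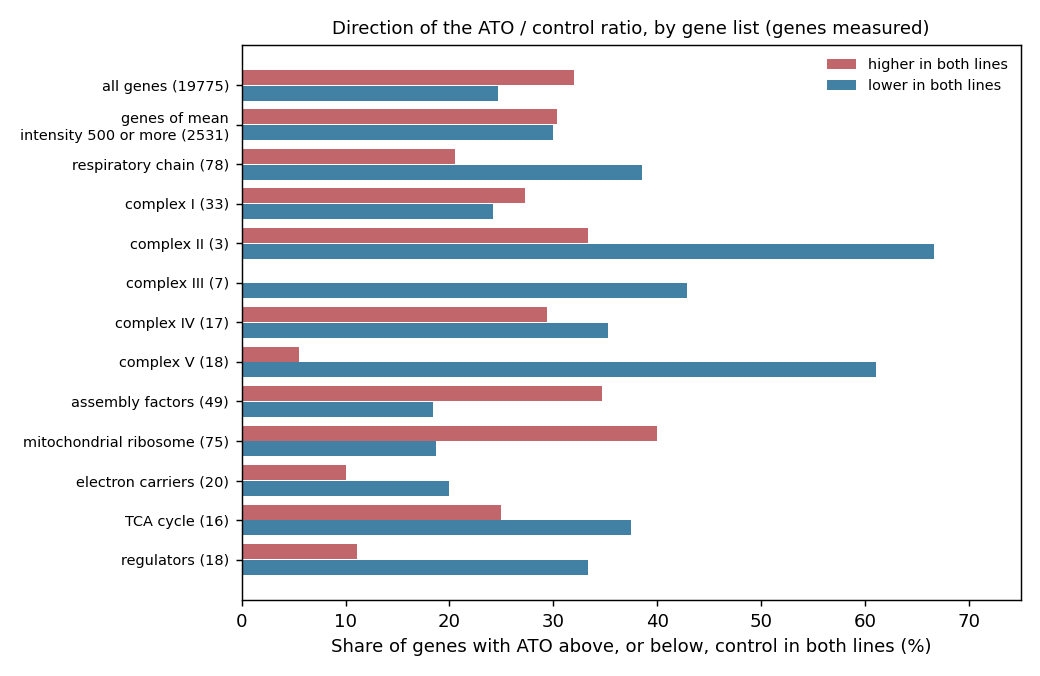
Share of genes (x axis, %) with ATO above (red) or below (blue) the negative control in both lines at any size, for all genes, for the respiratory chain and its complexes, and for related gene lists (y axis, number measured). Of the respiratory chain 38.5% were lower and 20.5% higher in both lines, against 24.7% and 32.0% of all genes.

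None of the 78 genes had an adjusted p under 0.05 for ATO from limma with the cell line in the model, and none of the 19775 genes had (0.0%). A fit with an intensity trend in its prior called 7 higher and 2 lower genes, without any respiratory chain gene. In the limma fit without that trend, the smallest adjusted p for ATO was 0.506, both over the 78 genes and over all genes. Before adjustment, 7 lower genes (NDUFA5, NDUFB1, NDUFB2, SDHD, UQCRB, COX5A and ATP5MC2) and 1 higher gene (NDUFV2) had a limma p under 0.05, which is 10.3% of the 78. The same holds for 9.54% of all genes and for 16.3% of those with a mean intensity of 500 or more. These counts depended on the offset added before the log, with 2 lower and 0 higher without one and 11 and 3 with an offset of 64. The model has 1 residual degree of freedom.

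**Figure D3:**
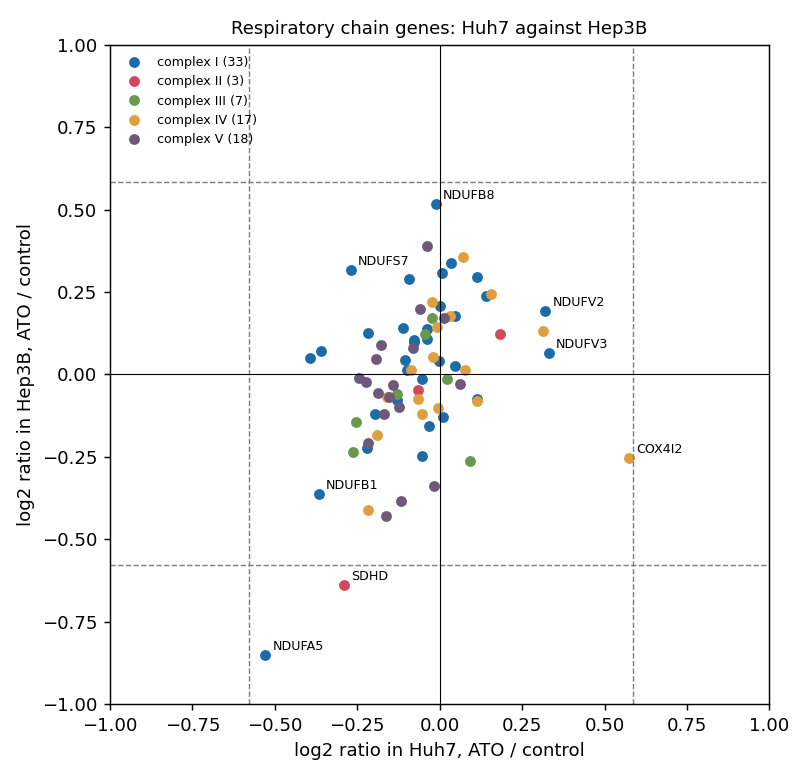
Each point is a respiratory chain gene, coloured by complex, with its log2 ratio (ATO over negative control) in Huh7 on the x axis against that in Hep3B on the y axis, with dashed lines at ratios of 1.5 and 0.67. No point lies beyond a threshold in both lines, and NDUFA5, at ratios of 0.693 and 0.554, is the lowest in each.

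Complex I, the NADH dehydrogenase, held both the gene with the lowest mean log2 ratio of the 78, NDUFA5, and the gene with the highest, NDUFV2. NDUFA5, an accessory subunit of the arm that reaches into the matrix, had intensities of 158 in the negative control and 110 with ATO in Huh7, and of 181 and 100 in Hep3B. Both ATO values were below both negative control values. Where this separation is given, here and below, the gene was named for a low ratio or chosen after its values were seen. How many of all genes separate in this way was not counted. The ratios of NDUFA5 were 0.693 and 0.554, a mean log2 ratio of -0.69 ± 0.23 (SD, n = 2). NDUFB1, an accessory subunit of the membrane arm, had 3675 and 2850 in Huh7, and 2338 and 1818 in Hep3B. The difference was nearly equal in the lines, with ratios of 0.775 and 0.777 and a mean log2 ratio of -0.37 ± 0.0024 (SD, n = 2), although the lines differ more from each other than the treatments do. NDUFB2, of the same arm, had ratios of 0.858 and 0.856.

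Other genes of complex I had ratios above 1 in both lines or in 1. NDUFV2, an iron-sulfur subunit next to the site that takes electrons from NADH, had 3093 in the negative control and 3862 with ATO in Huh7, and 1433 and 1637 in Hep3B. It was higher with ATO in both lines, at 1.25 and 1.14, with a mean log2 ratio of 0.26 ± 0.091 (SD, n = 2). NDUFB8, a membrane arm subunit, had 2075 and 2057 in Huh7, and 967 and 1383 in Hep3B. Its ratios, 0.992 and 1.43, therefore differed between the lines, the latter being the highest of the 78 in Hep3B. NDUFS7, an iron-sulfur subunit near the ubiquinone site, had 688 and 571 in Huh7, and 727 and 906 in Hep3B. It was lower with ATO in Huh7, at 0.83, and higher in Hep3B, at 1.24.

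Of the 33 genes of complex I, 22 (66.7%) were lower with ATO in Huh7, against 48.8% of all genes, and 23 (69.7%) were higher in Hep3B, against 56.0%. Among genes with a mean intensity of 500 or more these shares were 52.2% and 52.5%. Complex I had median log2 ratios of -0.05 and 0.07. With quantile normalization the counts were 21 and 24, and with each array centred 26 and 22. In both lines 8 (24.2%) were lower and 9 (27.3%) higher, near the 24.7% and 32.0% of all genes. The other core subunits of the electron path were near or above the negative control. NDUFS1, the largest iron-sulfur subunit, was level with the negative control in Huh7 and had a ratio of 1.24 in Hep3B. NDUFV1, which binds NADH, had ratios of 1.02 and 1.26, and NDUFS3, of the matrix arm, 0.947 and 1.07. NDUFV3 had ratios of 1.26 and 1.05, and NDUFA8, an accessory subunit, 1.08 and 1.23.

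Complex II, succinate dehydrogenase, belongs to both the chain and the TCA cycle, and its measured genes had different ratios. SDHD, a membrane anchor of the complex, had an intensity of 466 in the negative control and 381 with ATO in Huh7, and of 298 and 191 in Hep3B. It was lower with ATO in each line, at 0.818 and 0.642, a mean log2 ratio of -0.46 ± 0.25 (SD, n = 2), and the level in ATO-treated Huh7 was still above that in the Hep3B negative control. SDHC, the other anchor, had 0.955 and 0.967, from a probe set ending in _x_at, a kind that can also bind related transcripts. Its probe sets without that ending, with means of 641 and 544, were lower, at 0.944 and 0.822, and 0.802 and 0.811. Dimmer ones, with means of 82.6 and 81.2, had 0.914 and 1.01, and 0.858 and 1.24. SDHA, the flavoprotein that oxidizes succinate, was also read from a probe set ending in _x_at. It had 1625 and 1845 in Huh7, and 1083 and 1179 in Hep3B, with ratios of 1.14 and 1.09. By their brightest probe sets, the catalytic subunit and the anchors thus lay on opposite sides of 1 in both lines.

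Of complex III, the cytochrome bc1 complex, 3 of 7 genes (42.9%) were lower and 0 were higher in both lines. Over all genes the shares were 24.7% and 32.0%. Quantile normalization gave 3 and 2 of the 7 genes. UQCRB, a subunit near the ubiquinone site, had 2431 in the negative control and 2026 with ATO in Huh7, and 2045 and 1738 in Hep3B. Both ATO values were below both negative control values, with ratios of 0.833 and 0.85 and a mean log2 ratio of -0.25 ± 0.02 (SD, n = 2). Its probe sets with means of 1724 and 133 were also lower in Huh7 but near 1 in Hep3B, at 0.881 and 0.984, and 0.735 and 1.04. CYC1, cytochrome c1, which hands electrons to cytochrome c, had ratios of 0.838 and 0.904. The core proteins UQCRC1, at 1.02 and 0.99, and UQCRC2, at 0.97 and 1.09, were near the negative control. UQCRQ, the highest of complex III by mean log2 ratio, had ratios of 0.985 and 1.13.

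Of the 17 genes of complex IV, cytochrome c oxidase, 6 (35.3%) were lower and 5 (29.4%) higher in both lines. The shares were 24.7% and 32.0% of all genes, and 30.0% and 30.4% of those with a mean intensity of 500 or more. Complex IV had median log2 ratios of -0.01 in Huh7 and 0.01 in Hep3B. Both medians changed sign with quantile normalization, to 0.02 and -0.0016. COX5A, among the nuclear subunits found in every tissue, had 3739 in the negative control and 3217 with ATO in Huh7, and 3472 and 2611 in Hep3B. Both ATO values were below both negative control values, with ratios of 0.86 and 0.752 and a mean log2 ratio of -0.31 ± 0.14 (SD, n = 2). Its partner COX5B had ratios of 1.02 and 1.13, and COX4I1, a large nuclear subunit, 0.994 and 1.11. COX7A2L, a subunit-like factor that joins complexes III and IV into supercomplexes, had 1.05 and 1.28. NDUFA4, now placed with complex IV, is listed as COXFA4, which the symbols above do not include, and had ratios of 0.909 and 0.844.

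Several complex IV subunits come as pairs of genes for different tissues. The muscle forms COX6A2 and COX7A1 and the testis forms COX6B2 and COX8C were all under the median probe set of 17.3, with intensities between 3.59 and 15.7 on the 4 arrays. Their counterparts COX6A1, COX7A2, COX6B1 and COX8A had ratios between 0.877 and 0.986 in Huh7 and between 0.88 and 1.04 in Hep3B. COX4I2, the form known for induction at low oxygen, was also dim, at 18.7 in the negative control and 27.8 with ATO in Huh7, and 24.4 and 20.5 in Hep3B. Its ratio of 1.49 in Huh7 was the highest of the 78 in that line and went with 0.839 in Hep3B, so the lines lay on opposite sides of 1 near the dim end of the arrays. COX7B2, the testis form of COX7B, was bright in Huh7 only, as given with the comparison of the lines.

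Of the 18 genes of complex V, the ATP synthase, 16 (88.9%) were lower with ATO in Huh7, against 48.8% of all genes. In Hep3B 12 (66.7%) were lower, against 43.7%. Among genes with a mean intensity of 500 or more, 52.2% were lower in Huh7, 47.5% in Hep3B and 30.0% in both. Complex V had median log2 ratios of -0.15 and -0.03. In both lines 11 (61.1%) of its genes were lower, against 24.7% of all genes, and 1 (5.56%) was higher, against 32.0%. The higher gene was ATP5MG, at 1.01 and 1.13. With quantile normalization 7 were lower in both lines, 15 in Huh7 and 8 in Hep3B, where the median turned to 0.01, while centring each array left 17 and 12. The direction in Huh7 was therefore the same under these scalings, and that in Hep3B was not. The counts also rest on the brightest probe sets. Among the 11 genes lower in both lines, ATP5MJ, ATP5F1D, ATP5F1C and ATP5MC3 had a dimmer probe set above 1 in a line. For ATP5MJ it was higher in both lines, at 1.04 and 1.28. Outside the 11, ATP5PO, ATP5MG and ATP5IF1 had a dimmer probe set lower in both lines.

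Genes for the catalytic head and the membrane ring of complex V lay mostly a little below the negative control, while those for the stalk lay on both sides of it. ATP5PF, coupling factor 6 of the stalk, had 2565 in the negative control and 2294 with ATO in Huh7, and 2890 and 2145 in Hep3B. Both ATO values were below both negative control values, with ratios of 0.894 and 0.742 and a mean log2 ratio of -0.30 ± 0.19 (SD, n = 2). Of the other stalk genes, ATP5PD had ratios of 0.96 and 1.15, ATP5PB 0.945 and 1.06, and ATP5PO 1.04 and 0.979. ATP5F1A and ATP5F1B, the alpha and beta subunits of the head, had ratios of 0.878 and 0.962 for ATP5F1A and of 0.874 and 1.03 for ATP5F1B in Huh7 and Hep3B. ATP5MC1, ATP5MC2 and ATP5MC3, which encode the same protein of the rotating ring, were lower in both lines, at 0.889, 0.86 and 0.898 in Huh7 and at 0.921, 0.866 and 0.955 in Hep3B. ATP5ME, a small membrane subunit, had 0.923 and 0.767, and ATP5IF1, the inhibitor that stops the synthase from running backwards, 0.884 and 1.06. ATP5MF was read only by a dim probe set, with intensities between 13.8 and 19.3.

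Other probe sets of the same gene did not always repeat these directions. Of the 73 genes with a probe set at or above the median of all probe sets, 32 had more than 1. In 8 of the 32 every such probe set pointed the same way within each line, and in 24 they differed. ATP5F1E, ATP5ME, COX7C, NDUFA2 and NDUFB2 were lower, and NDUFV3 higher, in both lines by every such probe set. NDUFA5 and SDHD had only 1 probe set that bright, so their values have no such check. Counting a gene only when all its probe sets of that brightness point the same way in both lines left 21 lower and 10 higher. The share of all genes under that rule was not counted.

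In 3 genes with wide disagreement, a bright and a dimmer probe set differed. ATP5IF1 had log2 ratios of -0.18 and 0.09 by its brightest probe set and of -0.88 and -0.78 by the next, with mean intensities of 627 and 298. NDUFS1 had 0.01 and 0.31 by its brightest and -0.57 and -0.99 by a probe set with a mean of 50.1. ATP5F1C, the gamma subunit that turns inside the head, had -0.14 and -0.03 by its brightest and 0.16 and 1.38 by a probe set with a mean of 56.6. Its bright probe sets with means of 4150 and 3598 were also above 0 in Hep3B, with 0.01 and 0.16, and -0.03 and 0.16. Probe sets of a gene can read different ends or forms of its transcripts, and which of these applies was not tested.

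**Figure D4:**
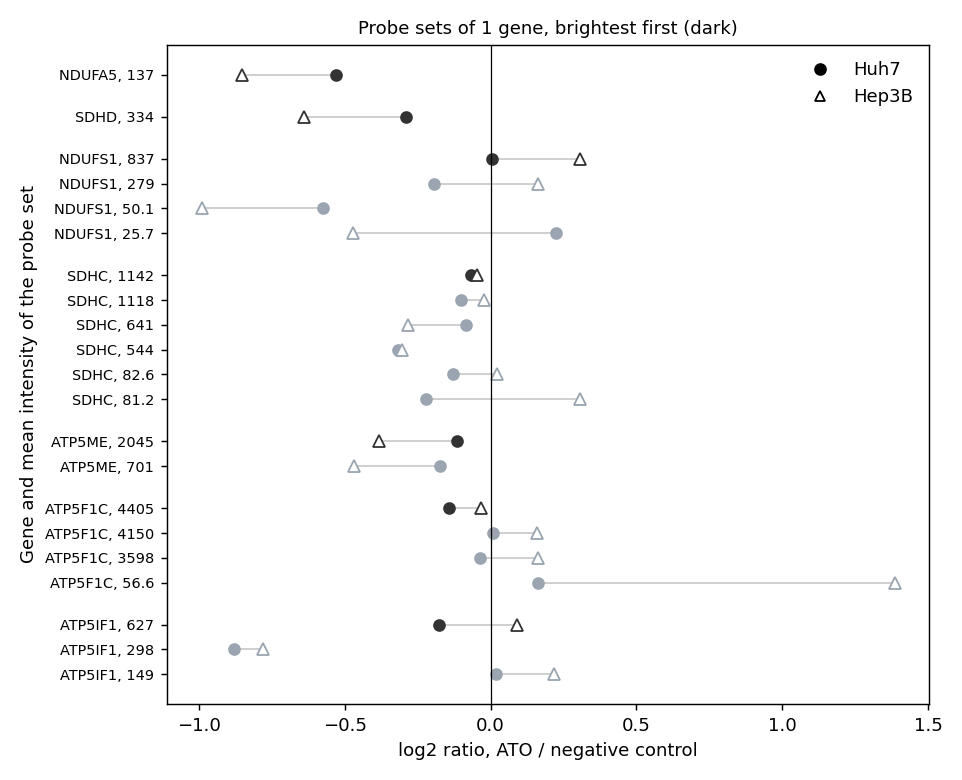
Log2 ratio of ATO over negative control (x axis) in Huh7 (circles) and Hep3B (triangles) for each probe set at or above the median of 7 respiratory chain genes (y axis, with the mean intensity of the probe set), the brightest drawn dark. The probe sets of ATP5ME point the same way in both lines, whereas those of ATP5IF1, NDUFS1 and ATP5F1C do not.

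More of the respiratory chain genes passed the test between the lines than between treatments, as was so for all genes. At an adjusted p under 0.05 from limma, 23 of the 78 (29.5%) differed between the lines either way. The shares were 24.3% of all genes and 40.0% of those with a mean intensity of 500 or more. In the limma fit, with the ATO and negative control arrays of a line as its replicates, 20 of the 78 genes were lower in Hep3B than in Huh7 at an adjusted p under 0.05 (25.6%), where 12.2% of all genes and 20.7% of those with a mean intensity of 500 or more were. In the same fit 3 genes (3.85%) were higher in Hep3B, namely NDUFB5, NDUFA13 and NDUFB9, against 12.2% of all genes and 19.4% of the bright ones. Quantile normalization gave 17 lower and 5 higher. Without a test, 52 genes (66.7%) were lower in Hep3B than in Huh7 with ATO and in the negative control, against 40.9% of all genes, and 18 (23.1%) were higher, against 33.9%. The median ratio of Hep3B over Huh7 was 0.846 for the 78 genes in the negative control and 0.838 with ATO, and 0.971 and 0.981 for all genes. The arrays of a line may come from 1 culture, so these p-values measure the spread between these arrays.

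COX7B2 differed most. It had intensities of 835 in the negative control and 930 with ATO in Huh7, and of 5.02 and 5.94 in Hep3B, where it was below the median probe set. The Huh7 arrays were 166 times the Hep3B arrays in the negative control and 157 times with ATO, and the size of that ratio is uncertain because the Hep3B values are dim. limma gave an adjusted p of 0.0105.

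COX7B, the widespread form of the same complex IV subunit, was also lower in Hep3B. It had 6523 and 5842 in Huh7, and 2205 and 2102 in Hep3B, with no overlap between the lines. Hep3B was at 0.338 of Huh7 in the negative control and at 0.36 with ATO, with a limma log2 difference of -1.51 ± 0.068 (SE) and an adjusted p of 0.0122.

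The other large differences fell in several complexes. ATP5IF1, the inhibitor of the ATP synthase, had 956 and 845 in Huh7, and 342 and 364 in Hep3B, with a limma adjusted p of 0.0179. That difference rests on its brightest probe set, as its dimmer ones were higher in Hep3B. These had 355 and 193 in Huh7 against 407 and 237 in Hep3B, and 121 and 123 against 164 and 190. NDUFV2 and NDUFC1 of complex I were at 0.463 and 0.464 of Huh7 in the negative control and at 0.424 and 0.482 with ATO. SDHD and SDHA of complex II, UQCRC1 of complex III and ATP5MC1, ATP5PB and ATP5F1A of complex V were also lower in Hep3B at an adjusted p under 0.05. On the other side NDUFB5, a membrane arm subunit of complex I, had 1452 and 1268 in Huh7, and 2744 and 2527 in Hep3B, with a limma adjusted p of 0.0165. NDUFA13, which also goes by GRIM-19, was 1.51 and 1.62 times as bright in Hep3B, in the negative control and with ATO. NDUFB4 was 1.47 and 1.28 times as bright, with a limma adjusted p of 0.0567.

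**Figure D5:**
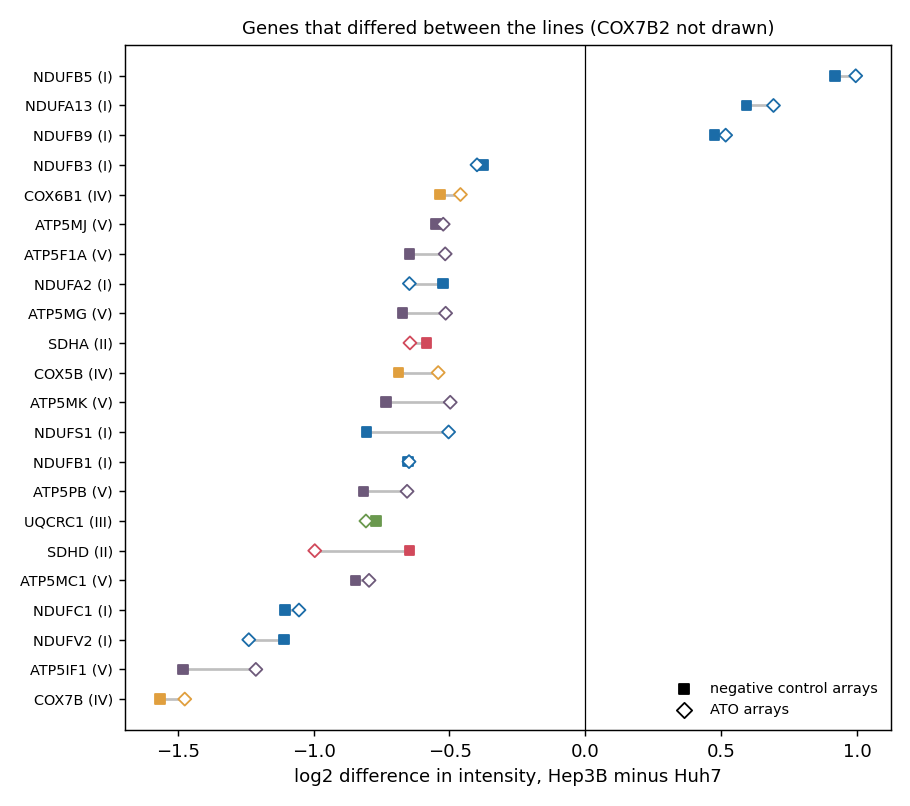
Log2 difference in intensity, Hep3B minus Huh7 (x axis), in the negative control (squares) and ATO arrays (diamonds) for the respiratory chain genes with an adjusted p under 0.05 between the lines from limma (y axis, complex in parentheses), without COX7B2, whose differences of -7.38 and -7.29 lie off the scale. NDUFB5, NDUFA13 and NDUFB9 lie above 0 and the others below.

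Genes around the chain were described from lists of related functions, of which none had a gene past 1.5 or 0.67 in both lines. The genes named from these lists were picked after their values were seen. Assembly factors, which build the complexes without staying in them, were higher in both lines in 17 of 49 (34.7%) and lower in 9 (18.4%), against 32.0% and 24.7% of all genes. In Hep3B 38 of 49 (77.6%) were higher, against 56.0%. SURF1, which helps build complex IV, had ratios of 0.957 and 1.41. Proteins of the mitochondrial ribosome, which makes the subunits encoded in mitochondrial DNA, were higher in both lines in 30 of 75 (40.0%) and lower in 14 (18.7%). With each array centred on its median these counts were 24 and 21, and for the assembly factors 15 and 10. The respiratory chain itself was higher in 16 of 78 and lower in 30, and no test of the difference was made.

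Electron carriers and their synthesis enzymes were higher in both lines in 2 of 20 (10%) and lower in 4 (20%), against 32.0% and 24.7% of all genes. CYCS, cytochrome c, had intensities of 5210 in the negative control and 4448 with ATO in Huh7, and of 5210 and 4355 in Hep3B, with ratios of 0.854 and 0.836. Both ATO values were below both negative controls. Of 16 measured TCA cycle and pyruvate dehydrogenase genes, 4 (25.0%) were above the negative control in both lines and 6 (37.5%) below it in both. SUCLA2, a subunit of succinyl-CoA synthetase, had ratios of 0.694 and 0.69, DLAT, the lipoyl-bearing subunit of pyruvate dehydrogenase, 0.815 and 0.669, and DLST, which bears the lipoyl group of the 2-oxoglutarate complex, 1.29 in both lines.

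Of 18 listed regulators of mitochondrial gene expression, 2 (11.1%) were higher in both lines and 6 (33.3%) lower. Over all genes the shares were 32.0% and 24.7%. With the probe sets of a gene averaged the regulators gave 6 higher and 3 lower. YY1, whose letters are in 25.8% of the promoters, had ratios of 0.758 and 0.726. GABPA, an ETS factor of these promoters, had 0.841 and 0.482, NRF1 0.953 and 0.839, and TFAM, which packs mitochondrial DNA and starts its transcription, 0.771 and 0.888. PPARGC1A, a coactivator of mitochondrial genes, had 0.762 and 0.947, while the 2 higher genes were TWNK, the helicase of mitochondrial DNA, at 1.41 and 1.76, and PPRC1, a coactivator related to PPARGC1A, at 1.17 and 1.42. None had an adjusted p under 0.05 from limma, and 3 (16.7%) had an unadjusted p under 0.05. The share was 9.54% of all genes and 14.6% of those at or above the median probe set, where 17 of the 18 regulators lay.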

How the data were processed

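Expression was measured in 4 samples on Human Genome U133 Plus 2.0 arrays with 54675 probe sets. Per the methods, preprocessing by the authors with the R package simpleaffy consisted of Robust Multi-array Average, log transformation and normalization. The deposited values are intensities on a linear scale, with array medians between 15.8 and 16.3 and maxima between 13416 and 14163.5, and the number of arrays limits the precision. How many arrays stand behind a column is not given in the sources used here. In the probe annotation 41097 probe sets had 1 gene symbol, 1801 several and 11777 none. Symbols were matched to RefSeq. Each gene was read from its brightest probe set with 1 symbol, and ratios were taken within each line.

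limma 3.58.1 in R 4.3.3 was fitted to log2(intensity + 16) over all genes, with cell line and treatment in the model, a prior of 1.81 degrees of freedom and Benjamini-Hochberg adjustment over all genes. The fit was tested on simulated data. Tables were handled with pandas 2.3.3 in Python 3.11.15. Genes were named if past 1.5 or 0.67 in a line, if among the 2 highest or 2 lowest of a complex by mean log2 ratio, if among the 5 with the largest line difference in a direction, or if core subunits or isoform pairs. Others were chosen after their values were seen. The genes and lists were chosen with earlier results of these data known. Alternatives were other ways to combine probe sets, other scalings, offsets, priors and thresholds, dim genes left out and no block for cell line.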

Additional observations from a re-analysis of the deposited data

Results flagged for a closer look

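The results here had opposite directions in the 2 lines, and with 1 profile per line and treatment these differences were not tested. The median log2 ratio of complex I was below 0 in Huh7 and above 0 in Hep3B, a difference of 0.13 (Hep3B minus Huh7). That of complex IV differed by 0.022 in the same way and changed sides of 0 with the scaling. Genes with a mean intensity of 500 or more had the same signs, with medians of -0.01 in Huh7 and 0.02 in Hep3B. The medians over all genes were 0.01 and 0.04, so the complex IV medians do not stand apart from the arrays as a whole. COX4I2, the complex IV isoform known for induction at low oxygen, differed by -0.83 between dim values. NDUFS7, an iron-sulfur subunit of complex I, differed by 0.59, from 0.83 of the negative control in Huh7 to 1.24 times in Hep3B.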

How the results depend on the processing

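The count of 0 genes above 1.5 in both lines held under every alternative run, and that below 0.67 became 3 with thresholds of 1.2 and 0.83. Genes higher in both lines numbered 10 with each array centred on its median and 10 when every probe set had to point the same way, a check chosen after seeing the data, against 16. The mean of the lines' median log2 ratios for complex II, -0.06, was -0.135 with probe sets averaged per gene, -0.324 without probe sets ending in _x_at, which left 2 genes, and -0.087 with arrays centred. For complex III, -0.05, it was -0.0948 with probe sets averaged, -0.0309 with quantile normalization and -0.0813 with arrays centred. For complex IV, 0.0031, it was -0.0243 without probe sets ending in _x_at, -0.0269 with arrays centred and -0.0449 with dim genes left out. By leaving out a line, the median ran from -0.06 to 0.01 for all 78 genes, from -0.05 to 0.07 for complex I, from -0.07 to -0.05 for complex II, from -0.06 to -0.04 for complex III, from -0.01 to 0.01 for complex IV and from -0.15 to -0.03 for complex V. limma called 0 of the 78 genes for ATO under every alternative run, with no replicate block for cell line too (0 higher and 0 lower). Among all genes it called 1 higher and 2 lower with dim genes left out, 5 and 3 without an offset, and 7 and 2 with an intensity trend in the prior, against 0 and 0. At an unadjusted p under 0.05 the 78 genes gave 1 higher and 7 lower, against 0 and 2 without the block, 0 and 2 without an offset, 3 and 11 with an offset of 64, 0 and 3 with dim genes left out, and 0 and 4 with an intensity trend. Genes higher in Hep3B than in Huh7 numbered 5 with the mean of probe sets and 5 with quantile normalization, against 3. Where no construction of the alternative shows it, the cause was not tested. Of 32 genes with several probe sets, 24 had disagreeing ones, and 5 of the 78 genes were under the median probe set.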
